A study of Mus musculus with 24 samples.

Results

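A set of genes that is read during the mesenchymal-to-epithelial transition (MET) of the kidney was followed across kidneys that lost Wt1 at different stages: the cadherins Cdh1, Cdh2, Cdh6 and Cdh11, the adhesion molecule Ncam1, and the mesenchymal genes Vim, Mmp2, Tgfb3, Snai2 and Twist1. They were chosen by name, 10 genes in all, and 9 of them had a row among the 17951 genes of the table, while Snai2 was not analysed here. A gene was tested where its detection p was under 0.01 in at least 3 of the 24 arrays, which left 10371 genes and 8 of the members. Cdh2 was detected in 0 of 24 arrays and was not tested.

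Total RNA of whole E18.5 mouse kidneys was hybridised to single-colour bead arrays, with 3 kidneys in each of 8 groups. The mutants were Nes-Cre Wt1co/co, Wnt4+/CreGFP Wt1co/co and Pax8+/Cre Wt1co/co, in which both Wt1 alleles are conditional and a Cre removes the gene. Nes-Cre is a transgene driven by Nestin sequences that acts in the mesenchyme and the nephrogenic lineage, incompletely, so that some nephrons escape and keep Wt1. The Wnt4+/CreGFP allele is knocked into Wnt4 and acts from the pre-tubular aggregate onwards. The Pax8+/Cre allele is knocked into Pax8 and acts in the condensed mesenchyme, the nephrons and the ureteric bud, so these 2 drivers also leave their carriers, mutants and controls alike, with 1 copy of the host gene disrupted. The controls were Wt1co/co without Cre for the Nes-Cre mutant, and Wnt4+/CreGFP and Pax8+/Cre, both with wild-type Wt1, for the others. A pair of groups with wild-type Wt1, Nes-Cre and wild type, shows the effect of the Nes-Cre transgene itself. The strain label of all groups is C57BL/6, where the methods name a C57BL/6/129Ola mixture. Each mutant shared a set of 6 arrays with its own control, as did Nes-Cre with wild type, and comparisons were made within these sets. The paper describes a comparison of each mutant with kidneys that carry its Cre alone. For the Nes-Cre mutant those kidneys are in another set, so that comparison is given here only as an alternative. Of the Nes-Cre Wt1co/co samples, 1 failed quality control in the study, and which is not stated, so all 3 were used and the members' changes in that group are also given without replicate 1, the array farthest from its group. Values of other genes without it are given where they then moved by over 1.5 times or lost the call.

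During the MET, mesenchymal cells around the tips of the ureteric bud condense, aggregate and become an epithelial renal vesicle, from which the nephron forms. Loose mesenchyme is held by N-cadherin and cadherin-11 and contains vimentin filaments. In the study's cultured kidneys, staining for neural cell adhesion molecule overlapped with the progenitor protein Six2 in the condensed mesenchyme. It was also found in the epithelialised nephron. Cadherin-6 appears as the cells become epithelial and later marks the early proximal tubule, and E-cadherin is the adhesion molecule of the ureteric bud and the distal nephron. Snai2 and Twist1 encode transcription factors known to repress E-cadherin in the reverse process.

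The values are log2 intensities after background correction and quantile normalization, on which the lowest value of any gene was 6.80, so changes of genes near that floor are understated. Levels are compared between groups of one gene, never between genes, whose probes differ. The background of the arrays was 152 to 182 intensity units in the set of Nes-Cre and wild type and 48.1 to 70.0 in the other sets, and 7458 to 8262 genes were detected in that set, against 8216 to 9681 in the others. Nes-Cre Wt1co/co replicate 1 lay at a median distance of 0.153 log2 units from the other arrays of its group, where the other 23 arrays lay at 0.0379 to 0.0958. Of the kidney markers, nephron progenitor, proximal tubule, ureteric and stromal genes were detected in every group, and 0 of 8 adrenal and gonadal markers were detected in any array. Neither separate litters nor the chip of an array is given, so p-values measure the spread between these kidneys.

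Promoter sequence was available for 2 members at the annotated start of the gene, Vim and Twist1, and is shown because both encode mesenchymal products whose transcripts were higher in a mutant. The RefSeq sequences (GRCm38.p6) cover the 250 bases before the start, on the plus strand, at chr2:13574061-13574310 for Vim and chr12:33957421-33957670 for Twist1. Capitals mark CCAAT or its reverse complement ATTGG, and TATAA or its reverse complement TTATA.
Vim: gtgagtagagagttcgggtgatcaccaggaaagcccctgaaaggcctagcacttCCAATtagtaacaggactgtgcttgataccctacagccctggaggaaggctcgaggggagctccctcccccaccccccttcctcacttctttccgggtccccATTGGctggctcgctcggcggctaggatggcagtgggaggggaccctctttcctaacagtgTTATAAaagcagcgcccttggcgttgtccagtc
Twist1: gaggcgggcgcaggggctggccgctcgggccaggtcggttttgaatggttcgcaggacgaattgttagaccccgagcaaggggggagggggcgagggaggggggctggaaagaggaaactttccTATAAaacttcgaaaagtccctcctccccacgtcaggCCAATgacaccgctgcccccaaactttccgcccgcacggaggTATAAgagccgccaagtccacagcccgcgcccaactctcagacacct

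Both windows held a match to each of these motifs, a CCAAT-type match starting 94 bases before the start in Vim and 89 bases before it in Twist1, and a TATAA match 32 and 47 bases before it. Of all 32851 such windows, 33.8% held a CCAAT-type match and 22.8% a TATAA-type match on either strand, and the TTATA and TATAA of Vim overlap. The E-box CANNTG, the letters that Twist and Snail family proteins are known to recognise, had 0 matches in either window, although 66.2% of all windows held at least 1. That says only that these letters are not in the 250 bases, and the matches are letters and not shown sites. The other members lie at chromosome 8 (Mmp2 92827290 to 92853421, Cdh11 102632095 to 102785493, Cdh1 106603350 to 106670247), 9 (Ncam1 49502129 to 49799393), 12 (Tgfb3 86056743 to 86079041), 15 (Cdh6 13028699 to 13176407), 16 (Snai2 14705852 to 14709395) and 18 (Cdh2 16588877 to 16809246) of the same build.

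Loss of Wt1 with Nes-Cre, the driver that acts before the MET, went with higher transcripts of 3 mesenchymal members, Vim, Mmp2 and Tgfb3. After normalization, each was higher in all 3 mutant kidneys than in any of the 3 Wt1co/co kidneys. None of the 4 tested adhesion molecules passed the test. Of 8 members tested, 3 were called higher and 0 lower by limma at an adjusted p under 0.05, where 11.1% of all 10371 genes were called higher and 13.1% lower. The median change over the 8 members was 0.11 log2, beside 0.00 over all genes.

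Vim encodes vimentin, the intermediate filament protein of mesenchymal cells. Its normalized log2 intensity was 11.99, 11.52 and 11.67 in Nes-Cre Wt1co/co kidneys, against 10.65, 10.55 and 10.94 in Wt1co/co kidneys. The lowest mutant lay above the highest control, by more than the spread within either group. The log2 change was 1.01 (SE 0.12, 2.02-fold, adjusted p = 2.8e-05), and it was 0.88 (adjusted p = 7.4e-05) without replicate 1.

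Tgfb3, a ligand of the TGF-beta family, read 9.26, 8.18 and 8.26 in Nes-Cre Wt1co/co kidneys, against 7.43, 7.37 and 7.58 in Wt1co/co kidneys. Replicate 1 stood far above the other mutants, which were themselves above every control. The log2 change was 1.11 (SE 0.19, 2.15-fold, adjusted p = 0.00042), and 0.76 (adjusted p = 2.1e-05) without replicate 1. Mmp2 encodes gelatinase A, a metalloproteinase that cleaves basement membrane collagen. It read 12.27, 11.76 and 11.73 in Nes-Cre Wt1co/co kidneys, against 11.38, 10.99 and 11.24 in Wt1co/co kidneys, again without overlap. Its log2 change was 0.72 (SE 0.14, 1.64-fold, adjusted p = 0.0011), and 0.54 (adjusted p = 0.0037) without replicate 1. Groups that do not overlap, with every mutant array the higher, were seen for these 3 of the 8 members and for 15.6% of all genes. The raw intensities of all 3 overlapped, so the separation appears only after normalization. Raw Vim lay at 1580 to 2630 in the mutants and 1310 to 1680 in the controls. Raw Mmp2 lay at 1640 to 3360 and 1590 to 2720, and raw Tgfb3 at 200 to 391 and 173 to 220.

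The E-cadherin gene Cdh1 read 8.65, 9.29 and 9.28 in Nes-Cre Wt1co/co kidneys, against 9.18, 9.00 and 8.99 in Wt1co/co kidneys. Replicate 1 lay below all controls and the other two above them. The log2 change was 0.01 with a 95% confidence interval of -0.38 to 0.41 (adjusted p = 0.97), an interval that leaves room for a change in either direction. It was 0.22 (adjusted p = 0.41) without replicate 1. The sign turned on the processing, and 0 of 11 other ways of processing all arrays called it. The change was -0.36 (adjusted p = 0.084) in the deposited ratio values and -0.27 (adjusted p = 0.18) with arrays scaled to the 75th percentile. It was 0.30 (adjusted p = 0.22) with Nes-Cre kidneys as the control.

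Cdh6 read 7.00, 7.52 and 7.54 in Nes-Cre Wt1co/co kidneys, against 7.83, 7.60 and 8.33 in Wt1co/co kidneys. All 3 mutants lay below all 3 controls, as for 18.2% of all genes, but replicates 2 and 3 lay only just below the lowest control. Its log2 change of -0.57 (95% confidence interval -1.0 to -0.14, adjusted p = 0.051) missed the threshold, and was -0.39 (adjusted p = 0.19) without replicate 1. It passed without mutant replicate 2 (-0.65, adjusted p = 0.043) or 3 (-0.66, adjusted p = 0.042), or without Wt1co/co replicate 2 (-0.73, adjusted p = 0.026). The call turned on the processing. With the background taken from the intensities around a detection p of 0.5 the change was -1.14 (adjusted p = 0.02), and 6 of 11 other ways of processing all arrays called it lower. With Nes-Cre kidneys as the control, in place of Wt1co/co, it was -1.02 (adjusted p = 0.001), across sets of arrays.

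Ncam1 read 7.42, 7.02 and 6.97 in Nes-Cre Wt1co/co kidneys, against 6.98, 7.02 and 7.00 in Wt1co/co kidneys, so that replicate 1 alone stood apart. The log2 change was 0.14 (adjusted p = 0.17), -0.01 (adjusted p = 0.89) without it, and 0.22 (adjusted p = 0.027) without replicate 3. Twist1 read 7.35, 7.19 and 7.27 in Nes-Cre Wt1co/co kidneys, against 7.19, 7.16 and 7.21 in Wt1co/co kidneys, a change of 0.09 (adjusted p = 0.12) near the floor of the scale, which passed without mutant replicate 2 (0.12, adjusted p = 0.03) and was 0.05 (adjusted p = 0.42) without replicate 1. Cdh11 was at the edge of detection, with 6.92, 6.96 and 6.93 in Nes-Cre Wt1co/co kidneys, against 6.93, 6.95 and 6.94 in Wt1co/co kidneys, and 1 detected array among the 6, and its change was 0.00 (0.01 without replicate 1). Cdh2, the N-cadherin gene, read 6.83 to 6.85 in Nes-Cre Wt1co/co kidneys and 6.84 to 6.87 in Wt1co/co kidneys, with detection p-values of 0.73 to 0.97 and 0.37 to 0.89, so no level above background is shown for it.

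**Figure D1:**
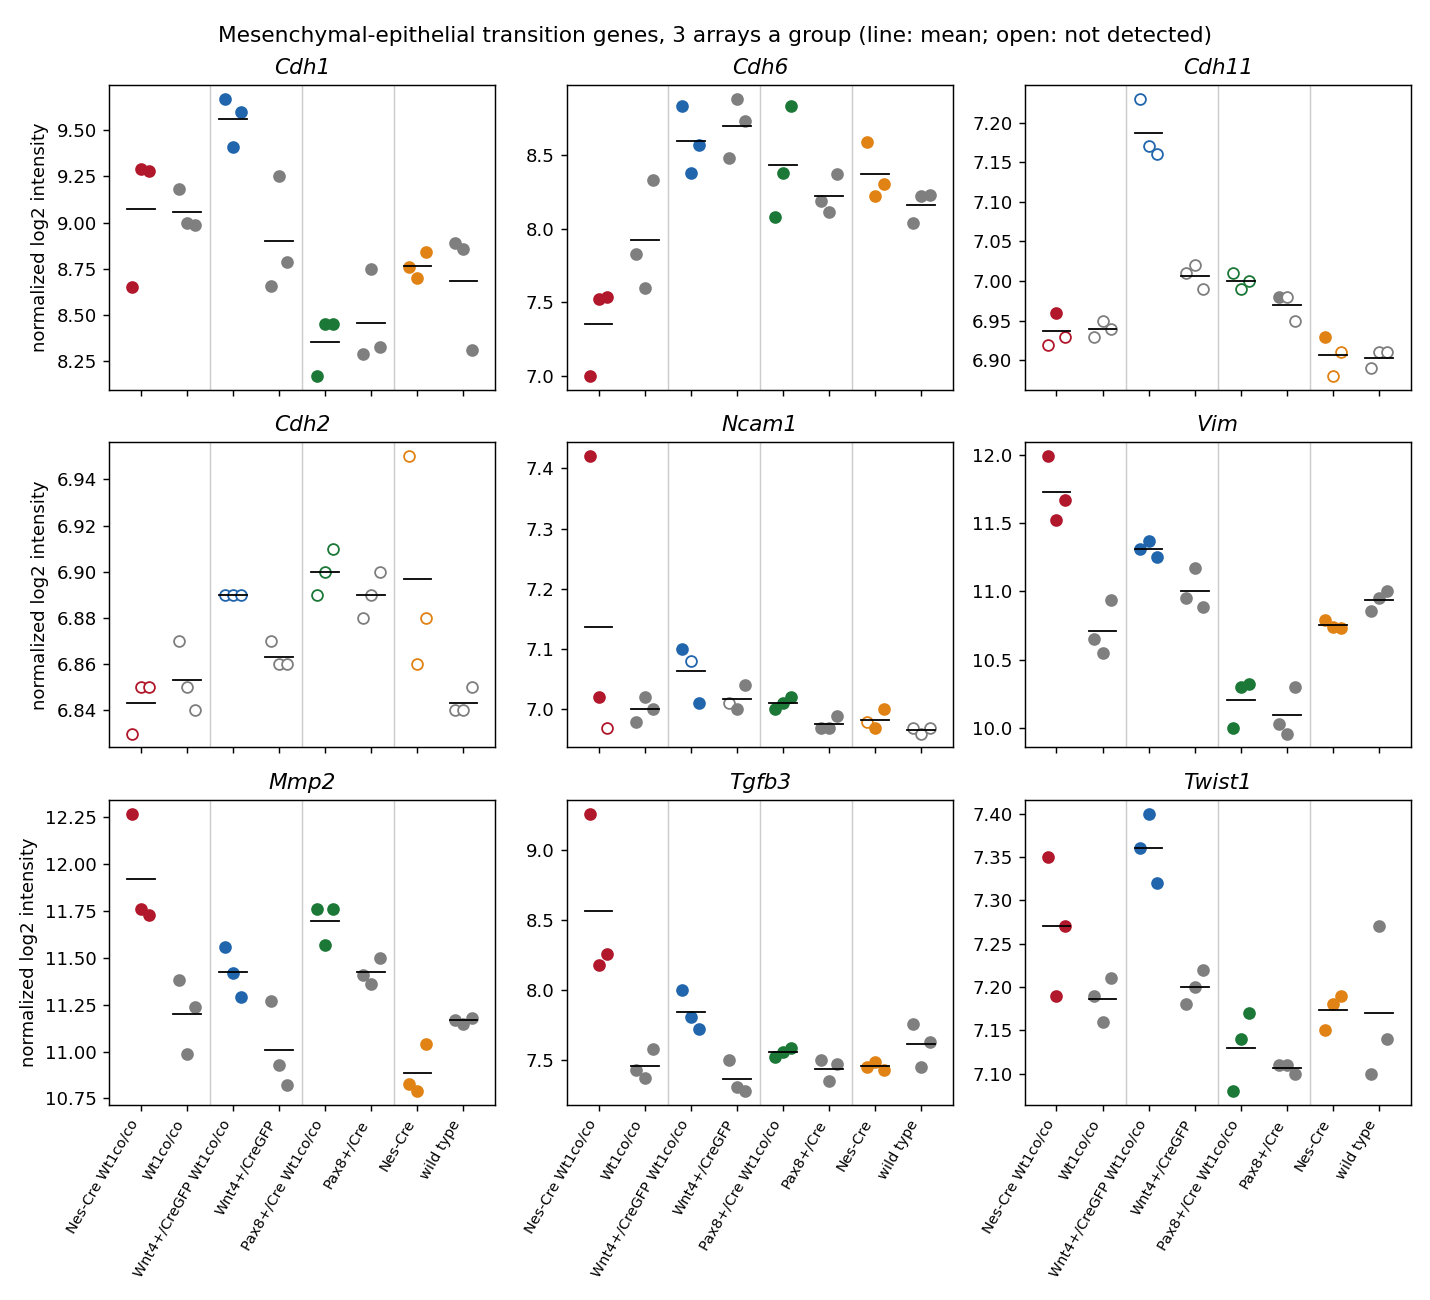
Normalized log2 intensity (y axis, a separate range for each gene) of the 9 members with a row, in each array of the 8 groups, with each mutant beside its own control and the group mean as a line. Open points were not detected. Vim, Mmp2 and Tgfb3 of Nes-Cre Wt1co/co kidneys sit above all Wt1co/co points, and Cdh1 of Wnt4+/CreGFP Wt1co/co kidneys at 9.41 to 9.67 sits above all Wnt4+/CreGFP points.

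Replicate 1 of the Nes-Cre Wt1co/co kidneys was the most extreme of the 6 arrays of its set for all 9 members with a row. It was the highest for Vim, Ncam1, Mmp2, Tgfb3 and Twist1 and the lowest for Cdh1, Cdh2, Cdh6 and Cdh11. The cell type markers differed on the same array. The summed linear level of the 8 measured proximal tubule markers was 968 in replicate 1, and 6570 and 9650 in replicates 2 and 3, against 19500 to 20900 in Wt1co/co kidneys, with 1 of the 8 (Slc22a8) detected in no mutant array.

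The 8 measured renal stroma markers summed to 26900, 12500 and 14300 in Nes-Cre Wt1co/co replicates 1, 2 and 3, against 9980 to 12000 in Wt1co/co kidneys, and 3 of 8 were called higher (Lum 2.03, Dcn 0.95 and Meis1 0.55 log2), of which Lum was 1.04 (adjusted p = 0.0047) without replicate 1 and Dcn was then not called (0.44, adjusted p = 0.086). The 11 measured striated muscle markers summed to 54800, 2580 and 2350, against 1500 to 1710 in Wt1co/co kidneys, with Tnni1 detected in no mutant array. Nephron progenitor markers summed to 994, 3670 and 3290, against 1990 to 2370 in Wt1co/co kidneys. The part of these cell types in the changes of Vim, Mmp2 and Tgfb3 was not tested. Stromal and muscle markers were highest in the array in which Vim, Mmp2 and Tgfb3 were highest. Without that array the 3 members were called higher, and so were 3 of 8 tested stroma and 6 of 7 tested muscle markers, where 14.3% of all genes were called higher and 12.3% lower. In whole kidneys, more cells of a type and more RNA per cell cannot be told apart.

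**Figure D2:**
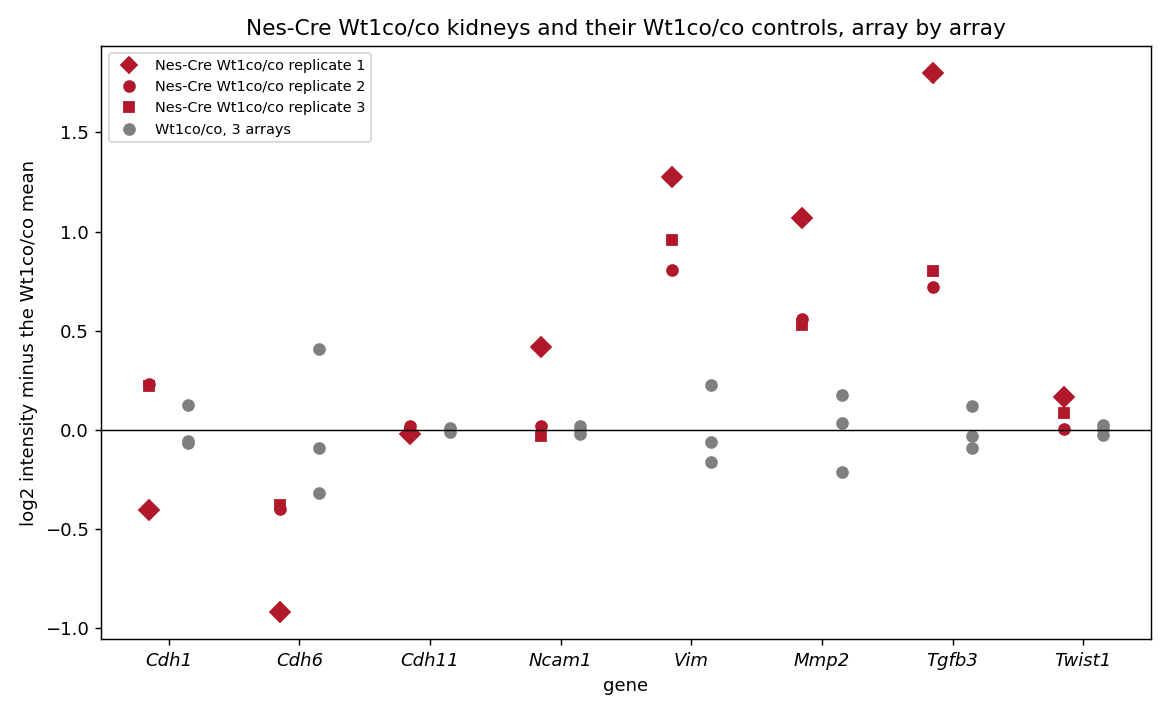
Each Nes-Cre Wt1co/co array (red, a marker shape per replicate) and each Wt1co/co array (grey) minus the mean of the 3 Wt1co/co arrays, in log2 units (y axis), for the 8 tested members (x axis). The diamond, replicate 1, is the lowest or highest point of every gene, while replicates 2 and 3 lie close together and above the controls for Vim, Mmp2 and Tgfb3.

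The calls of Vim and Tgfb3 in Nes-Cre Wt1co/co kidneys held in 10 of 11 other ways of processing all arrays, with changes of 0.70 to 1.19 and 0.75 to 1.35, and that of Mmp2 in 9 of 11, with changes of 0.46 to 1.03. The exception for all 3 was a fit of the 6 compared arrays alone (adjusted p = 0.071 for Vim, 0.15 for Tgfb3 and 0.13 for Mmp2), which leaves 33 called genes in place of 2511. Mmp2 also missed the threshold in the deposited ratio values, with a change of 0.46 (adjusted p = 0.14).

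In Wnt4+/CreGFP Wt1co/co kidneys, where Wt1 is lost from the pre-tubular aggregate onwards, the epithelial Cdh1 was called higher together with mesenchymal members. Of 8 members tested, 4 were called higher (Cdh1, Cdh11, Mmp2 and Twist1) and 0 lower, where 8.67% of all genes were called higher and 8.91% lower. Vim and Tgfb3 were higher in every mutant array but missed the threshold. The median change over the members was 0.24 log2, beside 0.02 over all genes, and 6 of 8 members had no overlap with every mutant array the higher, as did 25.6% of all genes.

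Cdh1 read 9.67, 9.41 and 9.60 in Wnt4+/CreGFP Wt1co/co kidneys, against 8.66, 9.25 and 8.79 in Wnt4+/CreGFP kidneys. The mutants lay close together above the controls, whose replicate 2 came within reach of the lowest mutant. The log2 change was 0.66 (SE 0.19, 1.58-fold, adjusted p = 0.022). The call was lost without mutant replicate 1 (0.61, adjusted p = 0.084) or 3 (0.64, adjusted p = 0.062), or without Wnt4+/CreGFP replicate 1 (0.54, adjusted p = 0.1) or 3 (0.61, adjusted p = 0.08).

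Mmp2 read 11.56, 11.42 and 11.29 in Wnt4+/CreGFP Wt1co/co kidneys, against 11.27, 10.93 and 10.82 in Wnt4+/CreGFP kidneys. The lowest mutant and the highest control were almost equal. The log2 change was 0.42 (SE 0.14, 1.34-fold, adjusted p = 0.043), and the call was lost without mutant replicate 1 (0.35, adjusted p = 0.17) or 2 (0.42, adjusted p = 0.089), or without Wnt4+/CreGFP replicate 2 (0.38, adjusted p = 0.13) or 3 (0.32, adjusted p = 0.19). Twist1, which encodes a basic helix-loop-helix factor of mesenchyme, read 7.36, 7.40 and 7.32 in Wnt4+/CreGFP Wt1co/co kidneys, against 7.18, 7.20 and 7.22 in Wnt4+/CreGFP kidneys. These groups were tight and apart, with a small log2 change of 0.16 (SE 0.04, adjusted p = 0.0089). The gene lies near the floor, and the part of the floor in the size of its change was not tested. Leaving out any 1 array of the set left Twist1 called.

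Cdh11, the cadherin of loose mesenchyme, read 7.23, 7.17 and 7.16 in Wnt4+/CreGFP Wt1co/co kidneys, against 7.01, 7.02 and 6.99 in Wnt4+/CreGFP kidneys, and limma called it higher (adjusted p = 9.1e-06). It had a detection p of 0.021 to 0.13 in the mutants and 0.12 to 0.16 in the controls, so none of these 6 arrays detected it by that p and no fold is given. That p did not follow the intensity: in mutant replicate 1, where the background was 48.1, Cdh11 had an intensity of 101 and a p of 0.13, and Ncam1 one of 84.3 and a p of 0.0054. How either was combined from the probes of a gene is not stated, so whether Cdh11 lay above background here is not settled. The raw intensities were 101, 109 and 113 in the mutants and 119, 82.1 and 92.8 in the controls, which overlap, so the separation appears only after normalization. That held for the other called members of this comparison too. Raw Cdh1 lay at 461 to 592 in the mutants and 468 to 641 in the controls. Raw Mmp2 lay at 1560 to 1860 and 1320 to 3140, and raw Twist1 at 117 to 145 and 114 to 181.

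Vim read 11.31, 11.37 and 11.25 in Wnt4+/CreGFP Wt1co/co kidneys, against 10.95, 11.17 and 10.89 in Wnt4+/CreGFP kidneys (change 0.31, SE 0.12, adjusted p = 0.10). Tgfb3 read 8.00, 7.81 and 7.72 in Wnt4+/CreGFP Wt1co/co kidneys, against 7.50, 7.31 and 7.28 in Wnt4+/CreGFP kidneys (change 0.48, SE 0.19, adjusted p = 0.088). Neither overlapped with its controls. Both passed once the Nes-Cre Wt1co/co array farthest from its group (replicate 1) no longer entered the error estimate common to all groups (adjusted p = 0.046 for Vim and 0.00039 for Tgfb3), and the change of Tgfb3 was 0.83 (adjusted p = 0.0097) with the background taken around a detection p of 0.5.

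Cdh6 read 8.83, 8.38 and 8.57 in Wnt4+/CreGFP Wt1co/co kidneys, against 8.48, 8.88 and 8.73 in Wnt4+/CreGFP kidneys, with overlap and a change of -0.11 (95% confidence interval -0.53 to 0.32, adjusted p = 0.81). Ncam1 lay between 7.01 and 7.10 in the mutants and 7.00 and 7.04 in the controls (change 0.05, adjusted p = 0.74). The renal stroma markers summed to 12600 to 14800 in Wnt4+/CreGFP Wt1co/co kidneys, against 9770 to 10700 in Wnt4+/CreGFP kidneys, with 3 of 8 called higher (6 of 8 without Nes-Cre Wt1co/co replicate 1), and the proximal tubule markers to 3370 to 5060, against 20000 to 22900, with 7 of 8 called lower. Their part in the 4 calls was not tested.

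The Wnt4+/CreGFP Wt1co/co calls depended on the scaling of the arrays. Scaled to the 75th percentile in place of quantile normalization, none of the 8 members was called (Cdh1 0.55, adjusted p = 0.055, Mmp2 0.34, adjusted p = 0.34, Twist1 0.20, adjusted p = 0.39, Cdh11 0.26, adjusted p = 0.3), where the median of all genes was 0.12. In the deposited ratio values, where that median was -0.13, only Cdh11 was called (0.42, adjusted p = 0.00087), and Cdh1 had a change of 0.21 (adjusted p = 0.4). Relative to those medians, all called members were above 0 in both settings. So were the uncalled Vim, Ncam1 and Tgfb3 (0.24 and 0.49 for Tgfb3), while Cdh6 was below 0, so the sign does not set the called members apart. The relative changes were 0.43 and 0.34 for Cdh1 and 0.23 and 0.20 for Mmp2. They were 0.08 and 0.24 for Twist1 and 0.14 and 0.55 for Cdh11, and were not themselves tested.

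None of the 8 tested members was called after the loss of Wt1 with Pax8+/Cre. Members called higher and lower numbered 0 and 0, where 3.28% of all genes were called higher and 3.68% lower, and 0 members had an unadjusted p under 0.05, against 1981 of all genes. The median change over the members was 0.07 log2, beside 0.01 over all genes. Vim read 10.00, 10.30 and 10.32 in Pax8+/Cre Wt1co/co kidneys, against 10.03, 9.96 and 10.30 in Pax8+/Cre kidneys, with overlap (change 0.11, 95% confidence interval -0.15 to 0.37, adjusted p = 0.74).

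Cdh1 read 8.17, 8.45 and 8.45 in Pax8+/Cre Wt1co/co kidneys, against 8.29, 8.75 and 8.33 in Pax8+/Cre kidneys (change -0.10, 95% confidence interval -0.50 to 0.30, adjusted p = 0.89). Cdh6 read 8.08, 8.38 and 8.83 in Pax8+/Cre Wt1co/co kidneys, against 8.19, 8.11 and 8.37 in Pax8+/Cre kidneys (change 0.21, adjusted p = 0.68). Both sets of values overlapped. Mmp2 had the largest change of the 8, with 11.76, 11.57 and 11.76 in Pax8+/Cre Wt1co/co kidneys, against 11.41, 11.36 and 11.50 in Pax8+/Cre kidneys (change 0.27, 95% confidence interval -0.02 to 0.56, adjusted p = 0.3), and its groups did not overlap.

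That was so for 4 of 8 members, Mmp2, Tgfb3, Ncam1 and Cdh11, where 19.3% of all genes had every mutant array the higher. Tgfb3 lay at 7.52 to 7.59 in Pax8+/Cre Wt1co/co kidneys and 7.35 to 7.50 in Pax8+/Cre kidneys, Ncam1 at 7.00 to 7.02 and 6.97 to 6.99, and Cdh11 at 6.99 to 7.01 and 6.95 to 6.98. These are differences of 0.12, 0.03 and 0.03 log2, none of which passed the test (adjusted p = 0.85, 0.92 and 0.52). Twist1 lay at 7.08 to 7.17 in the mutants and 7.10 to 7.11 in the controls. The renal stroma markers summed to 9670 to 11100 in Pax8+/Cre Wt1co/co kidneys and 9380 to 10700 in Pax8+/Cre kidneys, with 0 of 8 called.

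In kidneys with the Nes-Cre transgene alone, no member was called. Against wild type, 0 of 8 members were called in either direction and 0 had an unadjusted p under 0.05, where 0.0289% of all genes were called higher and 0.00964% lower, 4 genes in all. The arrays of Vim and Mmp2 did not overlap, with Nes-Cre the lower, as for 9.46% of all genes. Vim read 10.79, 10.74 and 10.73 in Nes-Cre kidneys, against 10.86, 10.95 and 11.00 in wild-type kidneys (change -0.18, adjusted p = 0.83), and Mmp2 10.83, 10.79 and 11.04, against 11.17, 11.15 and 11.18 (change -0.28, adjusted p = 0.67). Both values run opposite to the changes in Nes-Cre Wt1co/co kidneys. With this pair subtracted, the change in Nes-Cre Wt1co/co kidneys was 1.19 for Vim (adjusted p = 0.00032), 1.00 for Mmp2 (adjusted p = 0.0022) and 1.27 for Tgfb3 (adjusted p = 0.0037).

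**Figure D3:**
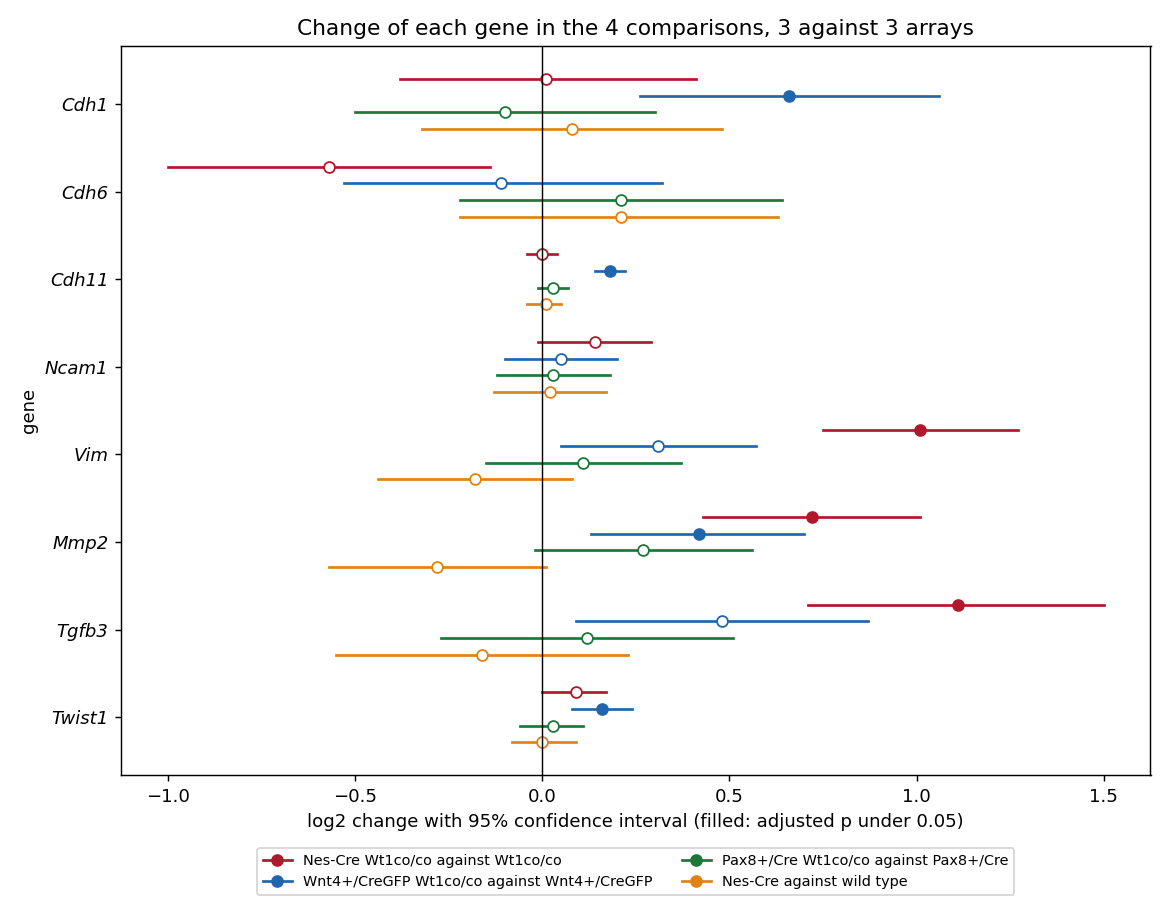
Log2 change (x axis) with its 95% confidence interval for the 8 tested members (y axis) in the 3 mutant comparisons and in Nes-Cre against wild type, 3 against 3 arrays each, with filled points at an adjusted p under 0.05. Vim, Mmp2 and Tgfb3 are filled in Nes-Cre Wt1co/co kidneys, Cdh1, Cdh11, Mmp2 and Twist1 in Wnt4+/CreGFP Wt1co/co kidneys, and no point is filled in the other 2 comparisons.

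Whether the mutants differ from each other in these genes was tested as a difference between their changes. The Nes-Cre change was taken against conditional kidneys without Cre, and the Wnt4+/CreGFP and Pax8+/Cre changes against Cre carriers with wild-type Wt1. A difference that involves Nes-Cre Wt1co/co therefore also holds a difference in control type. The change of Vim was 0.90 log2 larger (SE 0.18, adjusted p = 0.012) in Nes-Cre Wt1co/co than in Pax8+/Cre Wt1co/co kidneys, the only one of 8 members called, where 1.10% of all genes were called higher and 1.86% lower. It remained so at 0.77 (adjusted p = 0.013) without Nes-Cre Wt1co/co replicate 1, but missed the threshold in the deposited ratio values (0.40, adjusted p = 0.21) and in a fit of the compared arrays alone (adjusted p = 0.14). Tgfb3 differed between Nes-Cre Wt1co/co and Pax8+/Cre Wt1co/co kidneys by 0.98 (adjusted p = 0.051). It passed without Nes-Cre Wt1co/co replicate 1 (0.64, adjusted p = 0.0083), 2 (1.18, adjusted p = 0.013) or 3 (1.14, adjusted p = 0.027). With 1 array left out it stayed uncalled in 9 of 12 cases (adjusted p up to 0.11). Of 11 other ways of processing all arrays, 5 called it.

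Against Wnt4+/CreGFP Wt1co/co, the change of Vim in Nes-Cre Wt1co/co kidneys was 0.71 larger (SE 0.18, adjusted p = 0.04). That call held in 5 of 11 other ways of processing all arrays, with an adjusted p of 0.076 under 75th percentile scaling and 0.32 in the deposited ratio values. Limma called 1 member each way, Vim and Cdh11, where 1.19% of all genes were called higher and 1.43% lower. The fitted difference of Cdh11 was -0.18 (adjusted p = 0.0037), but it rests on the Wnt4+/CreGFP set, in which the detection p gave no detected array, and it was 0.15 (adjusted p = 0.55) under 75th percentile scaling and -0.38 (adjusted p = 0.21) in the deposited ratio values. The Vim difference did not pass without Nes-Cre Wt1co/co replicate 1 (0.58, adjusted p = 0.057), without Wnt4+/CreGFP Wt1co/co replicate 1 (0.71, adjusted p = 0.082) or 3 (0.68, adjusted p = 0.081), without Wt1co/co replicate 1 (0.67, adjusted p = 0.088) or 2 (0.62, adjusted p = 0.1), or without Wnt4+/CreGFP replicate 1 (0.74, adjusted p = 0.067) or 2 (0.62, adjusted p = 0.1). Cdh1 differed by -0.65 (95% confidence interval -1.21 to -0.08, adjusted p = 0.19), so the changes of Cdh1 in these mutants were not shown to differ. Between Wnt4+/CreGFP Wt1co/co and Pax8+/Cre Wt1co/co kidneys, Cdh11 was the only member called, with a difference of 0.15 (adjusted p = 0.032), where 0.280% of all genes were called higher and 0.183% lower, and Cdh1 differed by 0.77 (95% confidence interval 0.20 to 1.33, adjusted p = 0.25). Cdh11 was detected in 3 of all 24 arrays and in none of the Wnt4+/CreGFP set, and this last call was lost without Wnt4+/CreGFP Wt1co/co replicate 1, Pax8+/Cre Wt1co/co replicate 2 or 3, Wnt4+/CreGFP replicate 1 or 3, or Pax8+/Cre replicate 1, 2 or 3, each left out singly (differences of 0.13 to 0.16, adjusted p = 0.052 to 0.1).

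Across all 8 groups the members fell into different orders, with differences between array sets mixed in, so the order is a description. Vim was highest in Nes-Cre Wt1co/co kidneys (11.73 ± 0.24, SD, n = 3), then in Wnt4+/CreGFP Wt1co/co (11.31 ± 0.06), and both ranges lay apart from the next group. Wnt4+/CreGFP (11.00 ± 0.15) and wild-type kidneys (10.93 ± 0.07) overlapped, wild type lay apart from Nes-Cre (10.75 ± 0.04), which overlapped with Wt1co/co (10.71 ± 0.21), and the Pax8+/Cre Wt1co/co (10.21 ± 0.18) and Pax8+/Cre kidneys (10.10 ± 0.18) were lowest and overlapped.

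Mmp2 followed another order, with Nes-Cre Wt1co/co (11.92 ± 0.30), Pax8+/Cre Wt1co/co (11.69 ± 0.11), Pax8+/Cre (11.43 ± 0.07) and Wnt4+/CreGFP Wt1co/co (11.42 ± 0.14) ahead of Wt1co/co (11.20 ± 0.20), wild type (11.17 ± 0.01), Wnt4+/CreGFP (11.01 ± 0.23) and Nes-Cre (10.89 ± 0.13). Only the step from Pax8+/Cre Wt1co/co to Pax8+/Cre was free of overlap between neighbours. Tgfb3 stood apart in Nes-Cre Wt1co/co kidneys (8.57 ± 0.60), followed by Wnt4+/CreGFP Wt1co/co (7.84 ± 0.14), and the other 6 groups lay between 7.36 ± 0.12 in Wnt4+/CreGFP and 7.62 ± 0.16 in wild type, each overlapping with its neighbour.

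Of the cadherins, Cdh1 was highest in Wnt4+/CreGFP Wt1co/co kidneys (9.56 ± 0.13), apart from Nes-Cre Wt1co/co (9.07 ± 0.36) in second place, and lowest in Pax8+/Cre Wt1co/co kidneys (8.35 ± 0.16), with every step below the first overlapping. Cdh6 was lowest in Nes-Cre Wt1co/co kidneys (7.35 ± 0.31), apart from Wt1co/co (7.92 ± 0.37) above it, and the other 6 groups lay between 8.16 ± 0.11 in wild type and 8.70 ± 0.20 in Wnt4+/CreGFP. For Ncam1 and Twist1 no group was apart from the next, with means of 6.97 to 7.14 and 7.10 to 7.36. Cdh2 lay between 6.83 and 6.95 in all 24 arrays.

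**Figure D4:**
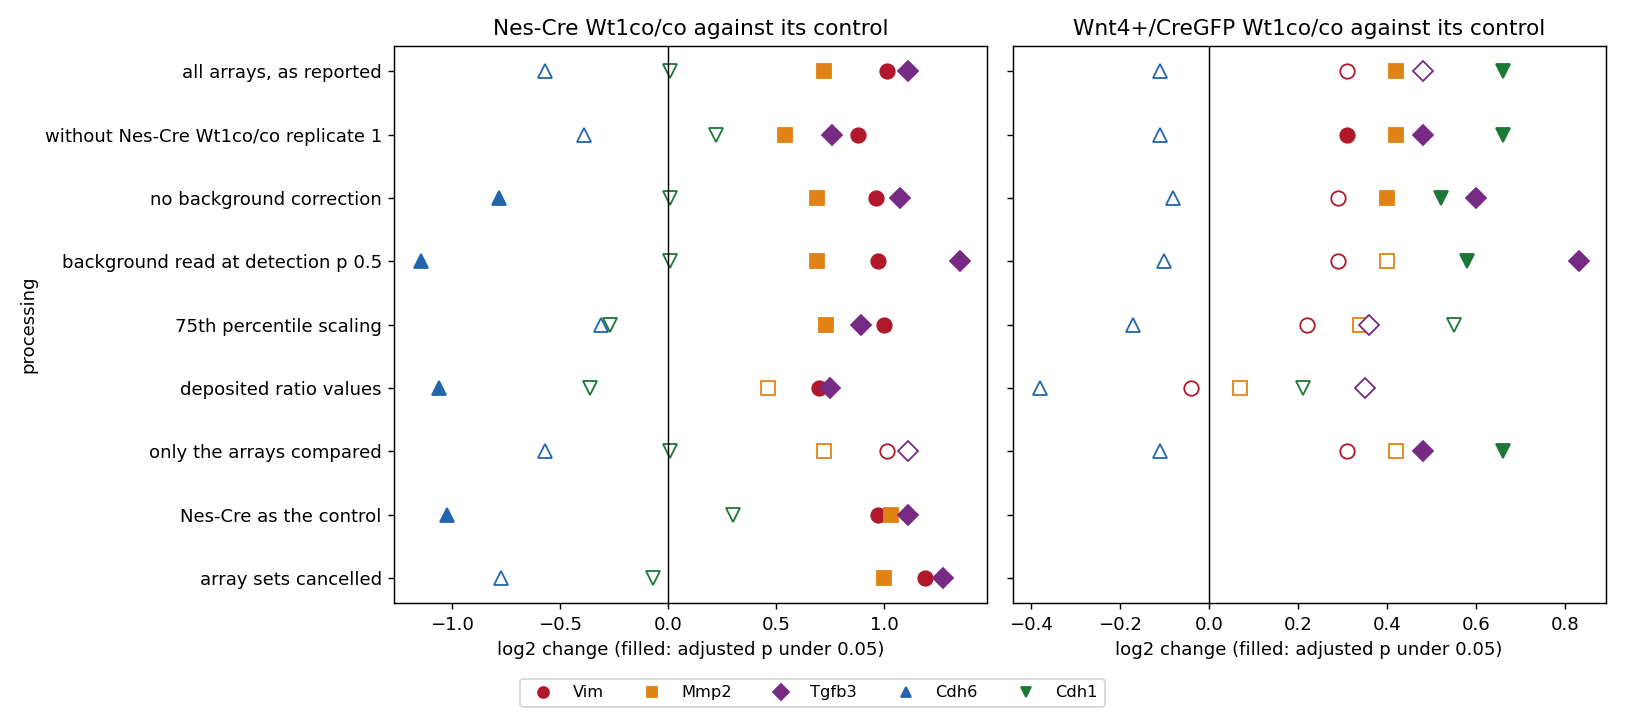
Log2 change (x axis) of Vim, Mmp2, Tgfb3, Cdh6 and Cdh1 under 9 ways of processing (y axis), in Nes-Cre Wt1co/co kidneys on the left and Wnt4+/CreGFP Wt1co/co kidneys on the right, with filled points at an adjusted p under 0.05. The last 2 rows apply to the left panel alone. On the left, Vim and Tgfb3 are open in the fit of the compared arrays alone and filled in the other 8 rows, while on the right no gene stays filled with 75th percentile scaling or the deposited ratio values.

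The genes most like a member were taken as those with the smallest root mean square difference over the 24 arrays, each value minus the mean of its set of 6 arrays. For Tgfb3, itself with a root mean square of 0.361 log2, these were Chrd (0.0895), which encodes the BMP antagonist chordin, Twist2 (0.115), a relative of Twist1, and Rcn3 (0.120). For Vim (0.299) they were Gnas (0.113), Capzb (0.127), an actin capping subunit, and Copz2 (0.131). For Mmp2 (0.269) they were 2310016C08Rik (0.116), Ebpl (0.124) and LOC100046207 (0.126), and for Cdh1 (0.259) Hoxb9 (0.137), LOC100042777 (0.142) and Zfp36l1 (0.15). Vim and its 3 genes were all higher in Nes-Cre Wt1co/co kidneys, by 0.64 to 1.01 log2, as the likeness itself requires.

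Other genes of the same pathways were described by lists, whose counts are to be read beside the share of all genes called. That share was 11.1% higher and 13.1% lower in Nes-Cre Wt1co/co, 8.67% and 8.91% in Wnt4+/CreGFP Wt1co/co and 3.28% and 3.68% in Pax8+/Cre Wt1co/co kidneys. Without Nes-Cre Wt1co/co replicate 1, which also entered the error estimate of the other mutants, it was 14.3% and 12.3%, 14.8% and 12.3%, and 7.19% and 6.26%. Among the epithelial-to-mesenchymal transcription factors, 2 of 12 tested genes were called higher and 0 lower after the Nes-Cre loss, Twist2 by 1.04 (adjusted p = 0.0021, and 0.61 without replicate 1) and Id1, an inhibitor of basic helix-loop-helix factors, by 0.44 (adjusted p = 0.014). In Wnt4+/CreGFP Wt1co/co kidneys 1 of 12 was higher, Id2 by 0.67 (adjusted p = 0.0064), and in Pax8+/Cre Wt1co/co kidneys 1 was lower, Foxc2 by -0.65 (adjusted p = 0.013). Without Nes-Cre Wt1co/co replicate 1, 3 of 12 were higher after the Nes-Cre loss, 5 of 12 after the Wnt4+/CreGFP loss and 0 of 12 after the Pax8+/Cre loss.

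Of 14 tested TGF-beta ligands, receptors and Smads, 4 were higher in Nes-Cre Wt1co/co kidneys, the secreted TGF-beta target Tgfbi (0.65), Tgfb2 (0.58), the latency protein gene Ltbp3 (0.48) and the receptor Tgfbr2 (0.36), and 1 was lower, the ligand Tgfb1 (-0.24, adjusted p = 0.00067). In Wnt4+/CreGFP Wt1co/co kidneys Tgfbi (0.52), Tgfb2 (0.31) and Ltbp1 (0.08) were higher and Tgfb1 (-0.20) lower, and in Pax8+/Cre Wt1co/co kidneys 0 of 14 were called. Without Nes-Cre Wt1co/co replicate 1 the counts were 3 higher and 2 lower after either of the first 2 losses. The Ltbp3 call was lost without that array (0.24, adjusted p = 0.13). Of the 3 TGF-beta ligands, Tgfb2 and Tgfb3 were thus called higher and Tgfb1 lower in Nes-Cre Wt1co/co kidneys.

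Among the other metalloproteinases and their inhibitors, 2 of 11 tested genes were higher in each of the mutants in which Mmp2 was called. Mmp14, which encodes the membrane protease known to activate pro-gelatinase A, was higher by 1.05 (adjusted p = 8.1e-05) in Nes-Cre Wt1co/co kidneys and by 0.63 (adjusted p = 0.0058) in Wnt4+/CreGFP Wt1co/co kidneys, and the inhibitor Timp1 by 1.06 (adjusted p = 5.9e-05) and 0.46 (adjusted p = 0.032). The inhibitor Timp3 (-0.38, adjusted p = 0.035) was lower in Wnt4+/CreGFP Wt1co/co kidneys. In Pax8+/Cre Wt1co/co kidneys 0 of 11 were called. Without Nes-Cre Wt1co/co replicate 1, 3 were higher and 0 lower after the Nes-Cre loss, 4 and 2 after the Wnt4+/CreGFP loss, and 1 and 1 after the Pax8+/Cre loss.

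Of 14 tested genes of mesenchymal matrix and surface, 3 were higher in Nes-Cre Wt1co/co kidneys, Col5a1 (0.78), Sparc (0.73) and Thy1 (0.46), with a list median of 0.51, beside 0.00 over all genes. Without replicate 1, Sparc was 0.44 (adjusted p = 0.0064) and Col5a1 was no longer called (0.34, adjusted p = 0.052). In Wnt4+/CreGFP Wt1co/co kidneys 2 were higher, Pdgfra (0.60) and Thy1 (0.26), and in Pax8+/Cre Wt1co/co kidneys Thy1 alone (0.42). Without Nes-Cre Wt1co/co replicate 1, 2 of 14 were higher after the Nes-Cre loss, 5 of 14 after the Wnt4+/CreGFP loss and 2 of 14 after the Pax8+/Cre loss. Renal stroma expresses many genes of this list, and Col1a1, Pdgfra and Pdgfrb stand in both lists.

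Of 14 tested genes of epithelial adhesion and splicing, 3 were higher in Nes-Cre Wt1co/co kidneys, the keratins Krt19 (1.69, adjusted p = 0.0025) and Krt18 (1.04, adjusted p = 0.0054) and the tight junction gene Cldn4 (1.00, adjusted p = 2.2e-05), while Grhl2, an epithelial transcription factor, was lower (-0.35, adjusted p = 0.0097). All 4 were also called without replicate 1, with Krt19 then at 0.97 and Krt18 at 0.58. In Wnt4+/CreGFP Wt1co/co kidneys 2 of 14 were higher, Cldn4 (1.12) and Cldn7 (0.24), and the desmosomal gene Pkp2 (-0.36) was lower. In Pax8+/Cre Wt1co/co kidneys Cldn4 (0.95) and the tight junction gene Ocln (0.38) were higher and 0 lower. Without Nes-Cre Wt1co/co replicate 1, 4 were higher and 2 lower after the Nes-Cre loss, 6 and 1 after the Wnt4+/CreGFP loss, and 4 and 0 after the Pax8+/Cre loss.

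Of 5 tested cadherins outside the members, Cdh13 (0.19, and 0.10 without replicate 1) was called higher in Nes-Cre Wt1co/co kidneys, and Cdh4 (0.14) and Cdh3 (0.12) higher and the endothelial Cdh5 (-0.35) lower in Wnt4+/CreGFP Wt1co/co kidneys. Of 5 tested catenin genes, only Ctnnb1, the gene of beta-catenin, which binds the tail of cadherins and acts in Wnt signalling, was called, higher in Wnt4+/CreGFP Wt1co/co kidneys (0.42, adjusted p = 0.027) and lower in Pax8+/Cre Wt1co/co kidneys (-0.44, adjusted p = 0.042). Its mean was 11.22 in Wnt4+/CreGFP Wt1co/co kidneys, against 10.81 in their Wnt4+/CreGFP controls. It was 9.99 in Pax8+/Cre Wt1co/co kidneys, against 10.43 in their Pax8+/Cre controls. In Nes-Cre against wild type 0 genes of any of these lists were called.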

How the data were processed

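The authors labelled total RNA of E18.5 kidneys with the Illumina TotalPrep kit for MouseRef-8 v2 BeadChips. The deposited intensities are linear, with 1 value per gene symbol, neither background-subtracted nor normalized. The way in which several probes of a gene were merged is unstated. The deposited detection p-values are 1 per gene and array, and do not order genes as the intensities do. The deposited ratio values, made by the authors in GeneSpring, are relative to the median of the 3 control arrays of a set of 6.

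Intensities were corrected and quantile-normalized with neqc (offset 16) on the log2 scale in limma 3.58.1 (R 4.3.3). All 8 groups were fitted together (residual df 16, prior df 1.32), with Benjamini-Hochberg adjustment over all 10371 genes of a comparison. Adjusted p-values are limma's throughout, and those under 0.05 are calls. The fit was tested on simulated data. In every group, replicates 1 and 3 appear exchanged between intensities and ratio values, and the text follows the intensities.

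The members and gene lists were chosen with earlier results of these data known. Named are all members, up to 4 called genes per list and mutant comparison with the largest changes, and the 3 genes most like each member called with a change of at least 0.5. Alternatives were no background correction, a background taken around a detection p of 0.5, 75th percentile scaling, the deposited ratio values, a stricter detection filter or none, only the compared arrays, array weights, a replicate block, Nes-Cre as the control, the Nes-Cre and wild-type pair subtracted, and each array left out. Promoters and positions are RefSeq's for GRCm38.p6. Plots used matplotlib 3.10.9 (Python 3.11.15).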

Additional observations from a re-analysis of the deposited data

Results flagged for a closer look

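The results in this section, 4 in all, stood out because the changes of 2 mutants differed from each other by a test of the difference itself (limma). Those that involve Nes-Cre Wt1co/co also hold a difference in control type. The change of Vim was larger in Nes-Cre Wt1co/co than in Pax8+/Cre Wt1co/co kidneys by 0.90 log2 (adjusted p = 0.012) and than in Wnt4+/CreGFP Wt1co/co kidneys by 0.71 log2 (adjusted p = 0.04), a call that held in 5 of 11 other ways of processing. The change of Cdh11 in Nes-Cre Wt1co/co minus that in Wnt4+/CreGFP Wt1co/co kidneys was -0.18 log2 (adjusted p = 0.0037), but 0.15 (adjusted p = 0.55) with 75th percentile scaling and -0.38 (adjusted p = 0.21) in the deposited ratio values. Its change in Wnt4+/CreGFP Wt1co/co minus that in Pax8+/Cre Wt1co/co kidneys was 0.15 log2 (adjusted p = 0.032), and that call too was lost under both of these settings (adjusted p = 0.7 and 0.19). Cdh11 was detected in 3 of 24 arrays, none of them in the Wnt4+/CreGFP set.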

How the results depend on the processing

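Of 1057 single-gene values of the members under other settings, 924 kept their direction and their side of the threshold, 51 lost a call, 34 gained one, 46 changed sign while uncalled under both settings and 2 changed sign with a call under one of them. Scaling to the 75th percentile gave both of those, a Cdh11 change of 0.41 (adjusted p = 0.012) in Nes-Cre Wt1co/co kidneys in place of 0.00, and a Cdh11 difference of 0.15 (adjusted p = 0.55) between the Nes-Cre and Wnt4+/CreGFP losses in place of -0.18. For all changes in calls below, the cause was not tested unless fewer samples or genes entered by construction. Detection limits Cdh2, Cdh11 and Ncam1. Their values lie near the floor of the scale, as do those of Twist1, which was detected in all 24 arrays.

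Scaled to the 75th percentile, 6 members and 6346 genes were called in Nes-Cre Wt1co/co kidneys, against 3 and 2511, and 0 members and 734 genes in Wnt4+/CreGFP Wt1co/co kidneys, against 4 and 1823. The median of all genes was then 0.22 and 0.12, and the genes called higher and lower numbered 4755 and 1591 after the Nes-Cre loss, in place of 1156 and 1355, and 156 and 578 after the Wnt4+/CreGFP loss, in place of 899 and 924. Differences between losses gave 0 members and 63 genes (Nes-Cre minus Wnt4+/CreGFP), 2 and 645 (Nes-Cre minus Pax8+/Cre), and 0 and 17 (Wnt4+/CreGFP minus Pax8+/Cre), where quantile normalization gave 2 and 271, 1 and 307, and 1 and 48.

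In the deposited ratio values, 1 member was called in Wnt4+/CreGFP Wt1co/co kidneys, 0 genes in Nes-Cre against wild type, 0 members and 34 genes for Nes-Cre minus Wnt4+/CreGFP, 1878 genes for Nes-Cre minus Pax8+/Cre and 0 members for Wnt4+/CreGFP minus Pax8+/Cre. There, genes called higher and lower numbered 255 and 2307 after the Nes-Cre loss, 110 and 1287 after the Wnt4+/CreGFP loss, and 303 and 282 after the Pax8+/Cre loss (medians of all genes -0.19, -0.13 and 0.13).

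Without background correction, 11 genes were called in Nes-Cre against wild type (4 before), 2 members for Nes-Cre minus Pax8+/Cre, and 0 members and 29 genes for Wnt4+/CreGFP minus Pax8+/Cre. With the background taken around a detection p of 0.5 these last gave 0 and 27, and Nes-Cre against wild type gave 17 genes. Without the detection filter, Nes-Cre against wild type gave 25 genes, Nes-Cre minus Wnt4+/CreGFP 1 member and Wnt4+/CreGFP minus Pax8+/Cre 21 genes. With detection required in all 3 arrays of a group, these differences gave 1 and 0 members.

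Fitting the compared arrays alone, with fewer residual degrees of freedom, called 0 members and 33 genes after the Nes-Cre loss, 0 and 29 for Nes-Cre minus Wnt4+/CreGFP, 0 and 31 for Nes-Cre minus Pax8+/Cre, and 192 genes for Wnt4+/CreGFP minus Pax8+/Cre. With array weights, 3342 genes were called after the Wnt4+/CreGFP loss, 2719 after the Pax8+/Cre loss (722 before), 15 in Nes-Cre against wild type, 603 for Nes-Cre minus Wnt4+/CreGFP, 2 members and 820 genes for Nes-Cre minus Pax8+/Cre, and 2 and 712 for Wnt4+/CreGFP minus Pax8+/Cre. With Nes-Cre kidneys as the control, 3781 genes were called after the Nes-Cre loss, 4 members and 1748 genes for its difference from the Wnt4+/CreGFP loss, and 4 and 1602 for that from the Pax8+/Cre loss. With the Nes-Cre and wild-type pair subtracted, these gave 1617 genes, 1 member and 73 genes, and 196 genes.

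Over 12 pairs of same-numbered arrays, the correlation of deviations ran between -0.33 and 0.10 and was over 0.1 in 0. With few arrays a group and no litter or chip given, this cannot settle whether the replicate numbers mark pairs. A replicate block called 1 member for Nes-Cre minus Wnt4+/CreGFP (Vim then at an adjusted p of 0.055), 2 members for Nes-Cre minus Pax8+/Cre and 30 genes for Wnt4+/CreGFP minus Pax8+/Cre, and Cdh6 passed after the Nes-Cre loss (-0.57, adjusted p = 0.042).

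Leaving out each array in turn, the members called ranged over 3 to 5 after the Nes-Cre loss, 2 to 6 after the Wnt4+/CreGFP loss, 0 to 0 after the Pax8+/Cre loss and in Nes-Cre against wild type, 1 to 2 for Nes-Cre minus Wnt4+/CreGFP and for Nes-Cre minus Pax8+/Cre, and 0 to 1 for Wnt4+/CreGFP minus Pax8+/Cre. In the same order, the genes called ranged over 1529 to 2949, 1117 to 2805, 348 to 1395 and 3 to 13, and, for the differences, 115 to 674, 143 to 700 and 8 to 248.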
